A study of Mus musculus with 9 samples.

Results

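Twist1, Twist2, the E-protein genes Tcf12, Tcf3 and Tcf4, the inhibitor genes Id1, Id2, Id3 and Id4, and Hand2 were followed as 1 group of 10 genes through 9 RNA-seq libraries of the mouse coronal suture, where the frontal bone meets the parietal bone across fibrous tissue. They were picked by name, as the Twist proteins, the basic helix-loop-helix proteins they pair with and the Id proteins that compete for the same partners. All 10 were present among the 43644 genes of the deposited table, and all 10 were among the 29107 that passed the filter on low values. The 3 groups each held 3 libraries from C57BL/6 mice aged 7 months: REG, Twist1+/- mice that had suture regeneration surgery at 1 month of age; MUT, Twist1+/- mice without surgery; and WT, wild-type mice without surgery. REG and MUT thus carried the same heterozygous Twist1 genotype, which the labels describe no further, and the group REG had both the genotype and the surgery. The labels do not say that each library came from a different animal, so every p-value measures only the spread between these libraries.

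Basic helix-loop-helix (bHLH) proteins bind DNA as dimers, each partner reading one side of the short E-box motif. Twist1 pairs with itself or with E proteins, the broadly expressed bHLH proteins encoded by Tcf3, Tcf4 and Tcf12. Id proteins have the helix-loop-helix but lack the basic DNA-binding stretch, so an E protein bound by an Id cannot bind DNA, and the balance of Twist1, E proteins and Ids sets which dimers form. Loss of 1 copy of TWIST1 in humans causes Saethre-Chotzen syndrome with coronal synostosis, and TCF12 mutations in humans are another cause of coronal synostosis.

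Members of these families resemble each other in the sequence of their dimerization domain, which matters for whether their reads can be told apart. The most alike 90 bases of the Twist1 and Twist2 coding sequences lay in the bHLH domain and agreed at 82 positions (91.1%). They are shown with capitals at the bases that the pair shares and small letters where it differs (coding bases 347 to 436 of Twist1 and 209 to 298 of Twist2, counted from the start codon; GENCODE M21, GRCm38).
Twist1: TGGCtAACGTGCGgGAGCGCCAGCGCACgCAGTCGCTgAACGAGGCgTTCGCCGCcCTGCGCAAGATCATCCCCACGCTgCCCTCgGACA
Twist2: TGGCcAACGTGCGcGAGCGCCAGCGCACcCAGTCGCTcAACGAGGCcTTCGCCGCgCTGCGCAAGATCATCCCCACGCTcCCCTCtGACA
Id1 and Id3, the pair of inhibitor genes with the largest log2 changes in MUT vs WT, agreed at 63 of 90 bases (70%) in their most alike coding window, which lay in the helix-loop-helix (coding bases 179 to 268 of Id1 and 125 to 214 of Id3, with the same use of capitals).
Id1: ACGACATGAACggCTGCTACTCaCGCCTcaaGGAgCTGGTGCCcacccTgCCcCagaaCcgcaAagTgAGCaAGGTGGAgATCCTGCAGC
Id3: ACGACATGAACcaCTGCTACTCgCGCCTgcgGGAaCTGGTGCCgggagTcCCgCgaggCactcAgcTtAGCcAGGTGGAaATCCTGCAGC
No stretch of 75 bases, the read length, was shared between the annotated transcripts of any pair of members, and of stretches of 31 bases 6 were shared, all between Tcf12 and Tcf4. A full-length read could therefore be assigned to 1 member by its sequence.

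Values are in the deposited unit, in which the upper quartile of all genes was 2.76 in every library and a library's lowest value stood for 0 reads. Estimated reads on genes were 18276494 to 39377876 in REG, 2945636 to 10894209 in MUT and 16356391 to 20019712 in WT. Background, estimated from 1597 olfactory and vomeronasal receptor genes per kb of exon, was 0.493% to 0.816% of reads in REG, 7.21% to 22.5% in MUT and 0.592% to 0.857% in WT, and MUT replicate 2 had both the lowest background and the fewest reads of its group. Mitochondrial genes took 9.7% to 15.5% of reads in REG, 2.01% to 4.78% in MUT and 9.96% to 13.5% in WT. Scaling to total reads in place of the upper quartile moved the median log2 change of all genes to 1.11 in MUT vs WT, against 0.18 on the deposited scale, so each member is also given on that scale, in reads per 1e+06 reads (RPM). The part of these library differences in any result below was not tested.

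Twist1 (chromosome 12, 33957671 to 33959829, plus strand) is the gene targeted by the genotype and was lowest in the libraries labelled Twist1+/-. Its values were 3.76, 9.19 and 12.2 in REG, 0.987, 8.08 and 0.548 in MUT, and 16.2, 23.3 and 23.1 in WT. Every Twist1+/- library lay under every WT library, and MUT replicate 2 stood apart from its group, above REG replicate 1. Twist1 averaged 3.21 ± 4.23 in MUT and 20.9 ± 4.02 in WT (SD, n = 3 each), and it fell by 3.26 ± 0.76 on the log2 scale (SE; limma adjusted p = 0.0109). Because these are bulk samples, fewer Twist1-expressing cells and less Twist1 RNA per cell cannot be told apart, here or for any member below. With MUT replicate 2 as the only MUT library the change was -1.31 (limma adjusted p = 0.287). In RPM, Twist1 stood at 10.2, 27.1 and 27.3 in REG, 5.46, 27.2 and 3.2 in MUT, and 35.1, 44 and 48.2 in WT, and it fell in MUT vs WT by 2.24 on the log2 scale (limma adjusted p = 0.0241).

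Twist1 in 2 of the 3 MUT libraries was close to their background. The estimated reads were 402.9, 819.8 and 499.5 in REG, 59.5, 80.0 and 25.1 in MUT, and 573.6, 881.8 and 957.6 in WT. The background expected over the exons of Twist1 was 56.1%, 3.89% and 87.8% of the reads in the MUT libraries, at most 1% in REG and at most 0.337% in WT. After taking it off, Twist1 stood at 10.2, 27.2 and 27.4 RPM in REG, 3.09, 28.1 and 0.491 RPM in MUT, and 35.3, 44.2 and 48.4 RPM in WT. On that scale the library MUT replicate 2 lay above all 3 REG libraries.

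In REG, Twist1 averaged 8.38 ± 4.27 against 3.21 ± 4.23 in MUT, a log2 difference of 1.85 ± 0.76 that did not pass the test (limma adjusted p = 0.0808). Without MUT replicate 2 the difference was 2.83 and passed (limma adjusted p = 0.00714), and with MUT replicate 2 alone it was -0.09 (limma adjusted p = 0.955). On the RPM scale it was 1.18 (limma adjusted p = 0.192). Against WT, the REG libraries did not overlap with the WT libraries and the log2 difference was -1.40 ± 0.76 (limma adjusted p = 0.567).

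Twist2 (chromosome 1, 91801461 to 91848028, plus strand), the close relative of Twist1 with roles in skin and bone mesenchyme, was near the floor in all groups. Its values were 0.0449, 0.0565 and 0.163 in REG, 0.988, 0.365 and 0.904 in MUT, and 0.223, 0.763 and 0.311 in WT. REG was under MUT and WT in every library, and MUT and WT overlapped. Twist2 fell in REG vs MUT by 1.26 ± 0.39 on the log2 scale (limma adjusted p = 0.0305) and differed by 0.49 ± 0.39 in MUT vs WT (limma adjusted p = 0.347). Without WT replicate 3 the adjusted p of REG vs MUT was 0.0514 (log2 change -1.26) and without REG replicate 1 it was 0.0678 (-1.19). Without WT replicate 2, MUT replicate 1 or MUT replicate 3, Twist2 did not pass the filter on low values. After quantile scaling the change in REG vs MUT was -0.34 and not called (limma adjusted p = 0.6).

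In RPM, Twist2 stood at 0.097, 0.134 and 0.311 in REG, 5.47, 0.904 and 5.35 in MUT, and 0.421, 1.4 and 0.598 in WT. REG again lay under both other groups, and on that scale Twist2 fell in REG vs MUT by 1.86 (limma adjusted p = 0.0153) and MUT vs WT was 1.28 (limma adjusted p = 0.0674). The reads behind Twist2 were 3.8, 4.1 and 5.7 in REG, 59.6, 2.7 and 42.1 in MUT, and 6.9, 28.0 and 11.9 in WT. In MUT the background expected over its exons was 102% to 228% of these reads, so all 3 MUT libraries stood at 0 after subtraction. WT kept 0.193, 1.24 and 0.37 RPM, and REG 0, 0 and 0.179 RPM. An antisense gene, Gm29100, overlaps an exon of Twist2 and had higher values than Twist2 in all 9 libraries. The strand setting of the counting is not given in the sources used here, so reads from the overlap cannot be assigned to either gene.

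**Figure D1:**
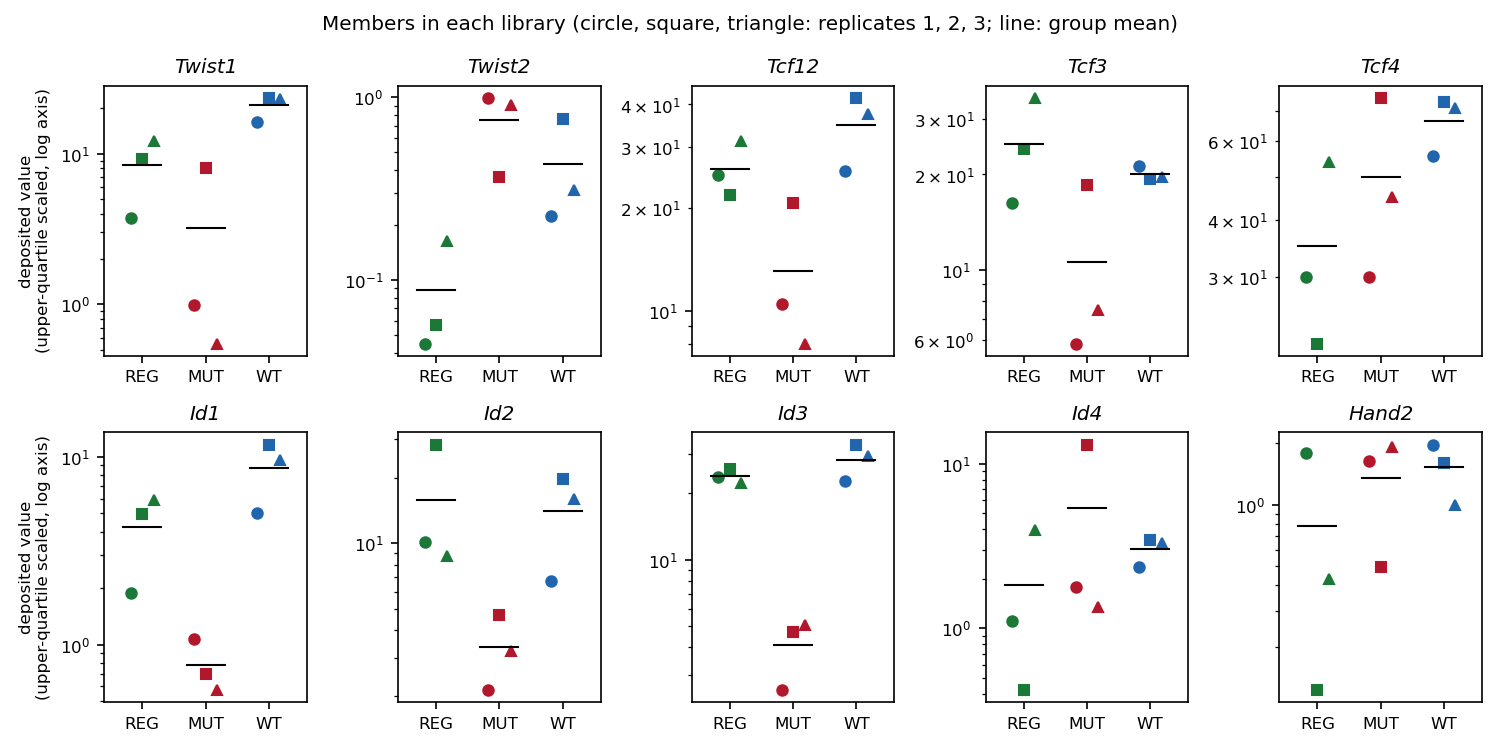
Deposited values of the 10 members in each library on a log axis, 1 panel a gene with its own range; circles, squares and triangles are replicates 1, 2 and 3, and lines are group means (n = 3). For Id1, Id2 and Id3 the 3 MUT libraries lie under all REG and WT libraries. The MUT square (replicate 2) lies apart upward for Twist1, Tcf12, Tcf3 and Id4, and apart downward for Twist2 and Hand2.

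The E-protein genes Tcf12, Tcf3 and Tcf4 did not follow 1 pattern. Tcf12 (chromosome 9, 71842688 to 72111871, minus strand), which encodes the E protein HEB, had values of 24.9, 21.7 and 31.2 in REG, 10.5, 20.7 and 8.02 in MUT, and 25.5, 41.7 and 37.4 in WT. The 3 MUT libraries were the lowest, with replicate 2 just under REG replicate 2. Tcf12 fell in MUT vs WT by 1.47 ± 0.41 on the log2 scale (limma adjusted p = 0.0221) and differed by 1.07 ± 0.41 in REG vs MUT (limma adjusted p = 0.0687). The call in MUT vs WT was lost without WT replicate 2 (adjusted p = 0.0907), WT replicate 3 (0.0771), MUT replicate 1 (0.102) or MUT replicate 3 (0.129), with log2 changes of -1.33, -1.41, -1.38 and -1.19 in limma. Without MUT replicate 2, REG vs MUT was called, at 1.44 (limma adjusted p = 0.0345).

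Scaled to total reads, Tcf12 stood at 67.7, 64.1 and 70.1 RPM in REG, 59.3, 69.9 and 48.5 RPM in MUT, and 55.3, 79 and 78.1 RPM in WT. MUT and WT overlapped on that scale and the log2 change was -0.25 (limma adjusted p = 0.587). Background accounted for 49.3%, 14.4% and 55.2% of the Tcf12 reads in MUT, and for at most 1.75% in REG and 2.04% in WT.

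Tcf3 (chromosome 10, 80409514 to 80433647, minus strand), which encodes the E proteins E12 and E47, had values of 16.3, 24 and 34.8 in REG, 5.85, 18.5 and 7.45 in MUT, and 21.2, 19.3 and 19.7 in WT. MUT lay under WT in every library, and MUT replicate 2 lay above REG replicate 1. Tcf3 rose in REG vs MUT by 1.32 ± 0.47 on the log2 scale (limma adjusted p = 0.049), and MUT vs WT was -1.07 ± 0.47 (limma adjusted p = 0.0991). The call in REG vs MUT was held by a narrow margin. It was lost without any 1 of the 3 WT libraries, MUT replicate 1 or 3, or REG replicate 2 or 3, at log2 changes of 1.00 to 1.32 and limma adjusted p of 0.0683 to 0.229. Without MUT replicate 2, the change in MUT vs WT was called, at -1.55 (limma adjusted p = 0.0324). In RPM it was 44.3, 70.8 and 78.1 in REG, 32.8, 62.6 and 45.1 in MUT, and 45.8, 36.6 and 41.1 in WT, where MUT vs WT turned to 0.14 (limma adjusted p = 0.799). On that scale the change in REG vs MUT was 0.46 and not called (limma adjusted p = 0.38), and after quantile scaling it was 0.54 (limma adjusted p = 0.417).

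Tcf4 (chromosome 18, 69343356 to 69689079, plus strand), which encodes the E protein E2-2, had values of 30, 21.3 and 53.8 in REG, 29.9, 74.6 and 45 in MUT, and 55.5, 73.2 and 70.9 in WT. The highest MUT library exceeded all WT libraries, and no comparison was called on the deposited scale, with log2 changes of -0.51 ± 0.45 in REG vs MUT, -0.50 ± 0.45 in MUT vs WT and -1.01 ± 0.45 in REG vs WT (limma adjusted p of 0.409, 0.41 and 0.527). In RPM, Tcf4 was 81.6, 62.9 and 121 in REG, 168, 253 and 273 in MUT, and 120, 139 and 148 in WT. MUT lay above REG and WT in all libraries on that scale. There it fell in REG vs MUT by 1.40 (limma adjusted p = 0.0161), while MUT vs WT turned to 0.74 (limma adjusted p = 0.15). After quantile scaling the change in REG vs MUT was -1.56 (limma adjusted p = 0.0228).

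The Id genes Id1, Id2 and Id3, which are direct targets of BMP signalling in many cell types, were lower in MUT than in WT and higher in REG than in MUT, while Id4 was not called. Id3 (chromosome 4, 136143497 to 136145755, plus strand) had values of 23.8, 25.7 and 22.2 in REG, 2.56, 4.7 and 5.07 in MUT, and 22.7, 33.2 and 29.4 in WT. All 3 MUT libraries lay far under every REG and WT library, and REG and WT overlapped. Id3 averaged 23.9 ± 1.74 in REG, 4.11 ± 1.36 in MUT and 28.4 ± 5.31 in WT (SD, n = 3 each). It fell by 2.72 ± 0.36 on the log2 scale in MUT vs WT (limma adjusted p = 0.00135) and rose by 2.49 ± 0.36 in REG vs MUT (limma adjusted p = 0.00187). The difference in REG vs WT was -0.23 ± 0.36 (limma adjusted p = 0.835). MUT held 155.9, 46.1 and 240.7 Id3 reads, of which background was 23.5%, 7.41% and 10.1%.

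In RPM, Id3 stood at 64.8, 75.7 and 49.8 in REG, 14.3, 15.7 and 30.6 in MUT, and 49.2, 63 and 61.3 in WT. MUT lay under both other groups on that scale too, and REG and WT overlapped. There Id3 rose in REG vs MUT by 1.66 and fell in MUT vs WT by 1.54 (limma adjusted p of 0.00878 and 0.0122). After background subtraction it rose in REG vs MUT by 1.62 (limma adjusted p = 0.049) and MUT vs WT was -1.50 (limma adjusted p = 0.0614). With MUT replicate 2 alone, REG vs MUT was 2.26 (limma adjusted p = 0.0505).

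Id1 (chromosome 2, 152736251 to 152737410, plus strand) had values of 1.88, 4.98 and 5.91 in REG, 1.07, 0.699 and 0.573 in MUT, and 5.05, 11.6 and 9.61 in WT. All MUT libraries were lowest, and REG overlapped with WT. Id1 fell in MUT vs WT by 2.94 ± 0.48 on the log2 scale (limma adjusted p = 0.00271) and rose in REG vs MUT by 1.90 ± 0.48 (limma adjusted p = 0.0134). Without MUT replicate 3, REG vs MUT was 1.77 (limma adjusted p = 0.0676). The MUT values rested on 64.9, 6.0 and 26.3 reads, of which background was 36.7%, 36.9% and 59.8%. In RPM, REG had 5.1, 14.7 and 13.2, MUT 5.95, 2.04 and 3.35, and WT 10.9, 22 and 20, so that REG replicate 1 fell into the MUT range, and REG vs MUT was 1.30 (limma adjusted p = 0.065). The change in MUT vs WT passed the test in all 22 alternatives, with log2 changes of -3.39 to -1.44 and limma adjusted p of 0.00084 to 0.0488.

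Id2 (chromosome 12, 25093799 to 25097140, minus strand) had values of 10.2, 28.3 and 8.8 in REG, 2.13, 4.68 and 3.22 in MUT, and 6.71, 19.8 and 15.9 in WT. The MUT libraries lay under all others, REG replicate 2 was the highest library, and REG and WT overlapped. Id2 fell in MUT vs WT by 1.89 ± 0.56 on the log2 scale (limma adjusted p = 0.0258) and rose in REG vs MUT by 1.98 ± 0.56 (limma adjusted p = 0.0206). MUT vs WT was not called without WT replicate 2 (-1.59, adjusted p = 0.106), WT replicate 3 (-1.74, 0.0897), MUT replicate 1 (-1.64, 0.106) or MUT replicate 3 (-1.90, 0.0773) in limma. REG vs MUT was not called without MUT replicate 1 (1.72, adjusted p = 0.095) or MUT replicate 3 (1.98, 0.0695) in limma. In RPM, Id2 stood at 27.8, 83.4 and 19.7 in REG, 11.9, 15.6 and 19.4 in MUT, and 14.5, 37.4 and 33.2 in WT. WT overlapped with both other groups, and the lowest REG library lay just above the highest MUT library. The log2 changes on that scale were 1.18 in REG vs MUT and -0.74 in MUT vs WT, neither of them called (limma adjusted p of 0.13 and 0.328).

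Id4 (chromosome 13, 48261228 to 48266026, plus strand) had values of 1.11, 0.421 and 3.97 in REG, 1.78, 13 and 1.35 in MUT, and 2.37, 3.42 and 3.28 in WT. MUT replicate 2 was the highest library and the other MUT libraries lay under WT. The log2 change was 0.13 ± 0.80 in MUT vs WT (limma adjusted p = 0.916), and without MUT replicate 2 it was -0.81 (limma adjusted p = 0.378). In RPM, Id4 stood at 2.99, 1.21 and 8.87 in REG, 9.95, 43.7 and 8.04 in MUT, and 5.07, 6.44 and 6.79 in WT. All MUT libraries lay above WT on that scale, with log2 changes of -1.89 in REG vs MUT and 1.22 in MUT vs WT that were not called (limma adjusted p of 0.0501 and 0.182). Background was 72.8% and 82.6% of the Id4 reads in MUT replicates 1 and 3, and 5.71% in MUT replicate 2. The antisense genes A330033J07Rik and Gm49291 overlap its exons.

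Hand2 (chromosome 8, 57320983 to 57324633, plus strand), a bHLH factor that patterns limb and facial mesenchyme and binds Twist1, had values of 1.79, 0.122 and 0.432 in REG, 1.64, 0.495 and 1.93 in MUT, and 1.97, 1.61 and 1 in WT. The 3 groups overlapped and no comparison was called, with log2 changes of -0.74 ± 0.58 in REG vs MUT, -0.22 ± 0.58 in MUT vs WT and -0.97 ± 0.58 in REG vs WT (limma adjusted p of 0.347, 0.787 and 0.599). In RPM, Hand2 stood at 4.86, 0.327 and 0.914 in REG, 9.12, 1.34 and 11.6 in MUT, and 4.2, 2.99 and 2.04 in WT. The groups overlapped there as well, with log2 changes of -1.44 in REG vs MUT and 0.75 in MUT vs WT (limma adjusted p of 0.137 and 0.431). Background reached 113% of the Hand2 reads in MUT replicate 2, 48.5% in MUT replicate 1 and 35.1% in MUT replicate 3, and the antisense gene Hand2os1 overlaps an exon of Hand2.

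**Figure D2:**
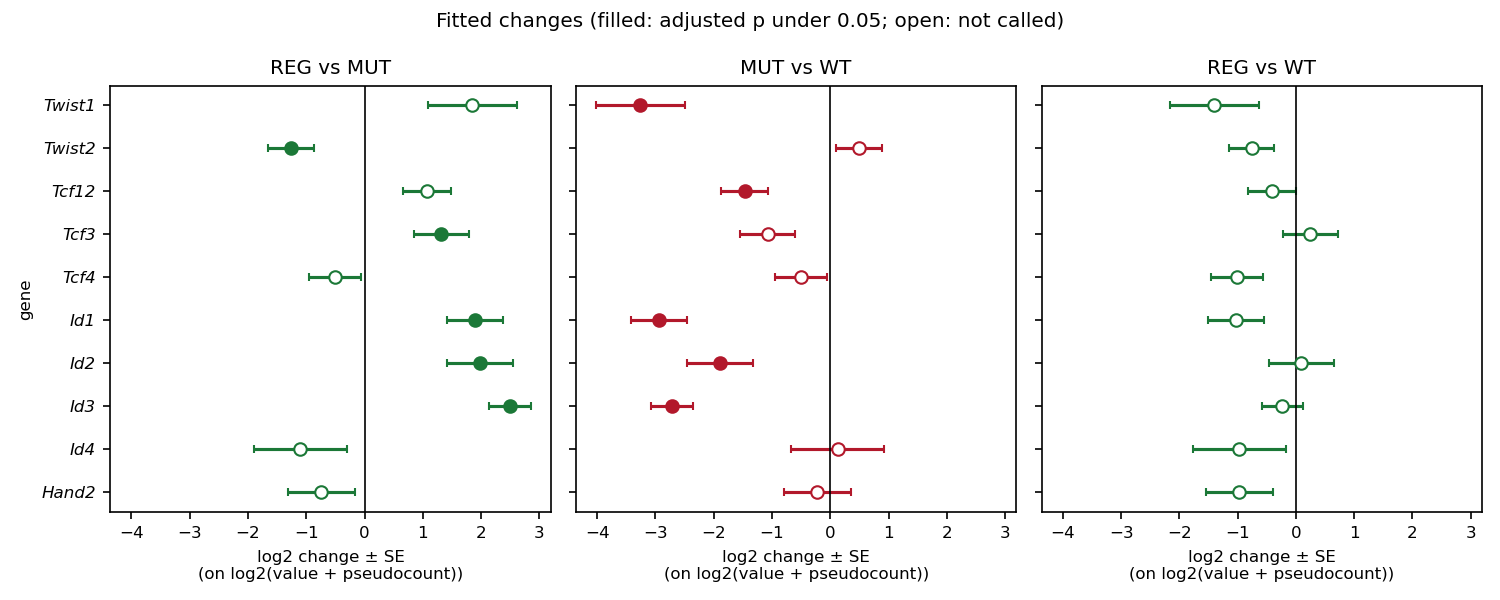
Fitted log2 change of each member with its SE (bars) in REG vs MUT, MUT vs WT and REG vs WT, from 1 limma fit over all 9 libraries; filled points passed an adjusted p of 0.05. Id1, Id2 and Id3 were called in both REG vs MUT and MUT vs WT with opposite signs, and no member was called in REG vs WT.

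Counted over the group, 5 of 10 members were called lower in MUT vs WT (Twist1, Tcf12, Id1, Id2 and Id3), beside 4261 of all 29107 genes tested (14.6%). None was called higher, beside 5964 of all genes (20.5%). The comparison of REG with MUT had 4 members called higher (Tcf3, Id1, Id2 and Id3), beside 3432 of all genes (11.8%), and 1 was called lower (Twist2), beside 7221 (24.8%). These shares depend on the filter on low values. A 10 times stricter filter kept 11449 genes, without Twist2, Id4 and Hand2. Of these, 3985 were called lower and 910 higher in MUT vs WT (median log2 change -0.99). In REG vs MUT, 2780 were called higher and 872 lower (median 0.73). The same 5 members were then called lower in MUT vs WT, and Id1, Id2 and Id3 higher in REG vs MUT. REG vs MUT and MUT vs WT share the MUT libraries, so opposite signs in them are not independent.

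The scale of the values moved these counts. Scaled to total reads, 3 members were called lower in MUT vs WT (Twist1, Id1 and Id3), beside 2.89% of 30353 genes, and all genes split into 11734 higher (38.7%) and 876 lower. On that scale Id3 was called higher in REG vs MUT, beside 3.24% of genes, and Twist2 and Tcf4 lower, beside 37.7%. After background subtraction and the same scaling, Twist1 and Id1 were called lower in MUT vs WT, beside 3.58% of 24095 genes, and Id3 was called higher in REG vs MUT, beside 3.49%. After quantile scaling, Twist1, Id1 and Id3 were called lower in MUT vs WT, beside 8.87% of 28204 genes, while all genes split into 2532 higher and 2501 lower. With that scaling the member called lower in REG vs MUT was Tcf4, not Twist2, beside 8.15% of genes.

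In REG vs WT no member was called, beside 0 of 29107 genes in limma (0%), of which 2755 had an unadjusted p under 0.05. The smallest unadjusted p of a member was 0.0496, for Tcf4. Log2 changes of the members ran from -1.40 for Twist1 to 0.25 for Tcf3. Without REG replicate 3, 413 genes were called higher and 1203 lower, no member among them. The smallest p that an exact permutation test of 3 libraries against 3 could give is 0.1, so no such test was made for a single gene.

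**Figure D3:**
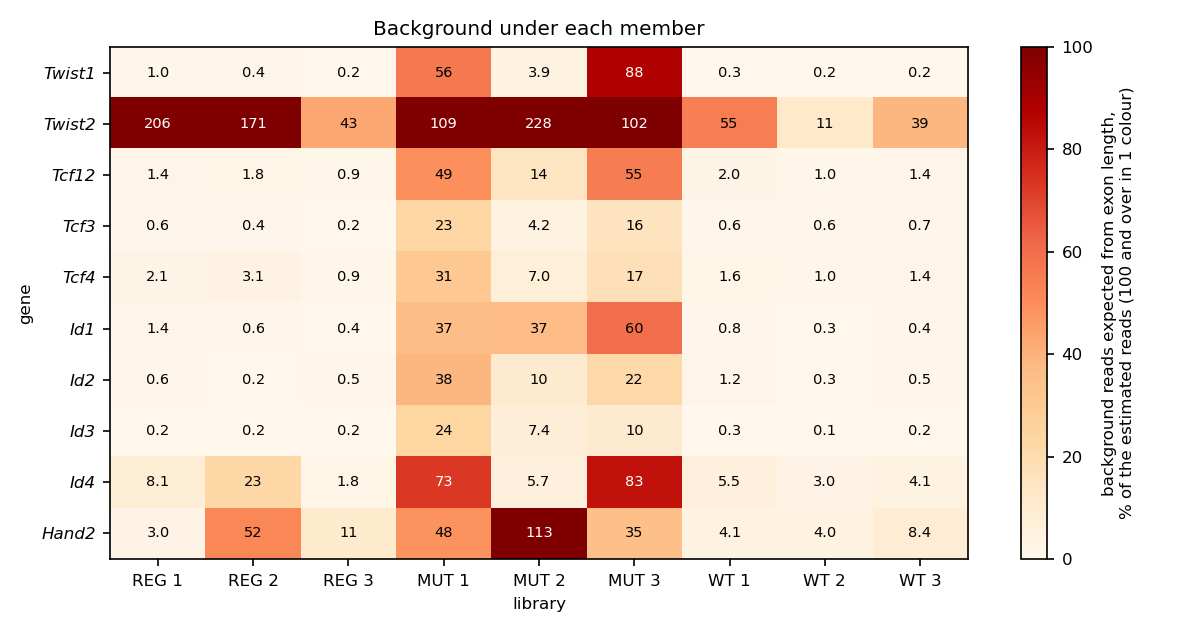
Background reads expected from exon length as a percentage of the estimated reads of each member (rows) in each library (columns), with all values at or over the gene's own reads in 1 colour. In MUT the shares reach 87.8% for Twist1 and 228% for Twist2 and run from 7.41% to 23.5% for Id3. Outside MUT, Twist2 reaches 206% and Hand2 51.9% in REG libraries.

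The authors' deposited table, made with a test of their own, called the same 5 members in MUT vs WT and the same 5 in REG vs MUT, in the same direction, at an FDR under 0.05, and none in REG vs WT. In the authors' deposited table the log2 ratio of WT over MUT, which is positive where MUT is lower, was 2.70 for Twist1 (FDR 0.013), 3.49 for Id1 (0.00479), 2.79 for Id3 (0.00236), 2.08 for Id2 (0.0315) and 1.42 for Tcf12 (0.0324). The log2 ratio of REG over MUT in the authors' deposited table was 2.54 for Id3 (FDR 0.00309) and -3.09 for Twist2 (0.0164). These tests used the same libraries, so they are no second measurement.

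Ratios of members within a library do not depend on how the library was scaled. The ratio of Tcf12 to Twist1 was 6.61, 2.37 and 2.56 in REG, 10.7, 2.56 and 14.6 in MUT, and 1.57, 1.79 and 1.62 in WT. All 6 Twist1+/- libraries had more Tcf12 for each unit of Twist1 than any WT library, MUT replicate 2 by the narrowest margin within its group. After background subtraction the mean ratio in MUT was 23.5, against 9.29 before, because MUT replicate 3 then stood at 55.6.

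Compared per kb of exon, the sum of Id1 to Id4 over the sum of Tcf3, Tcf4 and Tcf12 was 2.88, 3.74 and 1.76 in REG, 1.15, 0.986 and 1.25 in MUT, and 2.29, 3.71 and 3.24 in WT. The MUT libraries lay close together and under every other library, and MUT replicate 2 did not stand apart. The mean was 2.79 ± 0.993 in REG, 1.13 ± 0.132 in MUT and 3.08 ± 0.721 in WT (SD, n = 3 each). After background subtraction the means were 2.8, 1.07 and 3.09 in the same groups.

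The makeup of the E-protein sum also differed between groups. Tcf4 made up 16.3%, 9.59% and 15.6% of it in REG, 33.9%, 31.5% and 41% in MUT, and 22.8%, 26.3% and 26.2% in WT, so that no group overlapped with another. Tcf3 made up 59.9% to 73.2% in REG, 45% to 53.1% in MUT and 47.2% to 58.8% in WT, with REG above both. Tcf12 made up 16% to 23.8% in REG, 12.9% to 21.1% in MUT and 18.5% to 26.5% in WT, with overlap throughout. Background subtraction kept the order of the Tcf4 shares, at 9.38% to 16.1% in REG, 31.5% to 43.2% in MUT and 22.6% to 26.3% in WT.

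Within the Id sum, Id3 was the largest part in every WT library. Its share was 47.2% to 68.6% in REG, 30.8% to 56.7% in MUT and 49.4% to 62.2% in WT. Id2 took 16.3% to 38.2% in REG, 22.5% to 26.4% in MUT and 13.5% to 21.6% in WT. Id1 took 8.37% to 23% in REG, 7.07% to 25.1% in MUT and 21.3% to 26.7% in WT. Id4 took 0.36% to 4.66% in REG, 7% to 39.5% in MUT and 2.37% to 3.01% in WT, the 39.5% being MUT replicate 2. Twist2 over Twist1 was 0.00615 to 0.0134 in REG, 0.0452 to 1.65 in MUT and 0.0135 to 0.0328 in WT, and after background subtraction the MUT ratio was 0 in all 3 libraries.

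**Figure D4:**
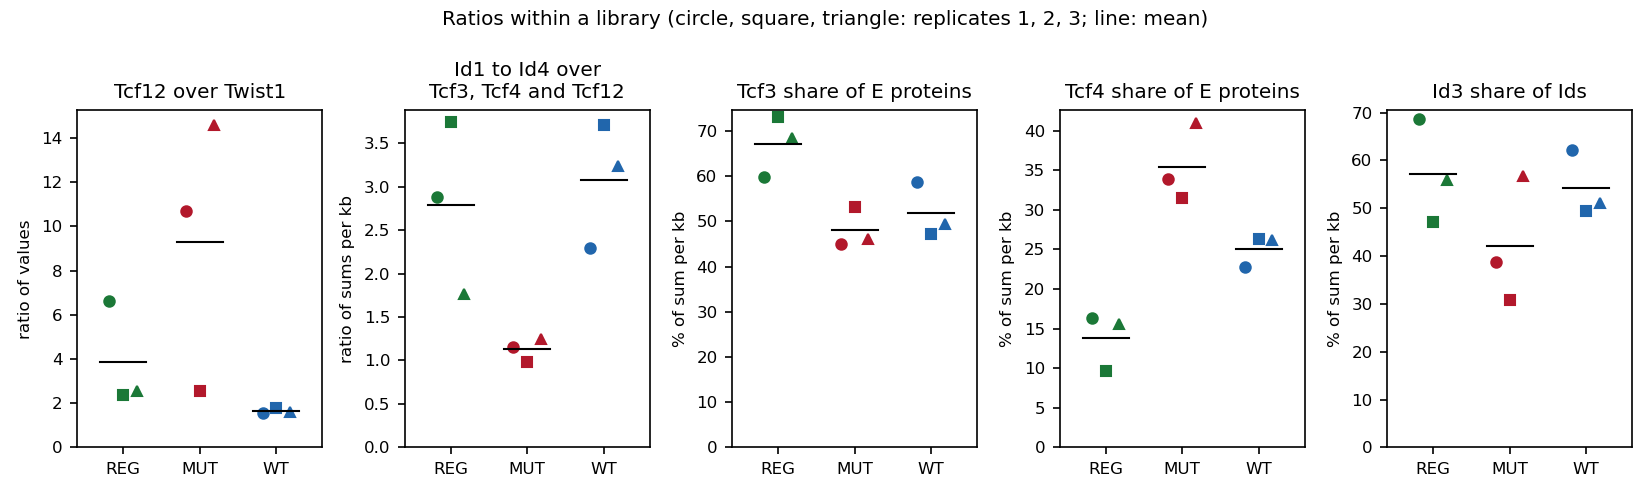
Ratios of members within each library, from left to right Tcf12 over Twist1, the Id sum over the E-protein sum, the Tcf3 and Tcf4 shares of the E-protein sum and the Id3 share of the Id sum; symbols are replicates and lines group means (n = 3). The Id sum over the E-protein sum is at most 1.25 in MUT and at least 1.76 elsewhere, and the Tcf4 shares of the 3 groups do not overlap.

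On the same scale per kb of exon, the order of levels in WT was Id3 (mean 15.9 ± 2.97), Twist1 (12.8 ± 2.47), Id1 (7.56 ± 2.91), Id2 (5.8 ± 2.75), Tcf3 (4.97 ± 0.237), Tcf4 (2.43 ± 0.351), Tcf12 (2.25 ± 0.54), Id4 (0.785 ± 0.149), Hand2 (0.648 ± 0.208) and Twist2 (0.136 ± 0.0914). The WT ranges of neighbours in that order were apart between Tcf3 and Tcf4, between Tcf12 and Id4, and between Hand2 and Twist2, and overlapped elsewhere. In REG, Id3 led at 13.3 ± 0.97, apart from Id2 at 6.46 ± 4.46, and Twist1 followed Tcf3 at 5.15 ± 2.63. In MUT the ranges of all neighbours overlapped, with means of 0.237 for Twist2 to 2.62 for Tcf3. These levels use the whole annotated exon length, which is 27.4 kb for Tcf4 and 15.5 kb for Tcf12 against 1.16 kb for Id1, and would be understated for genes that use only part of it.

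Promoter sequences from RefSeq were searched for 8 members, all but Tcf4, whose chromosome was left out, and Id1, which had no entry. Those of Id2 and Id3 are shown because both genes rose in REG vs MUT and fell in MUT vs WT. Each runs from 250 bases before to 50 bases after the start of transcription, 5′ to 3′ on the strand of the gene (RefSeq, GRCm38.p6; Id2 at chr12:25096043-25096342, minus strand; Id3 at chr4:136143572-136143871, plus strand). Capitals mark the E-box CANNTG and the GC-rich element GGCGCC, which read the same on both strands.
Id2: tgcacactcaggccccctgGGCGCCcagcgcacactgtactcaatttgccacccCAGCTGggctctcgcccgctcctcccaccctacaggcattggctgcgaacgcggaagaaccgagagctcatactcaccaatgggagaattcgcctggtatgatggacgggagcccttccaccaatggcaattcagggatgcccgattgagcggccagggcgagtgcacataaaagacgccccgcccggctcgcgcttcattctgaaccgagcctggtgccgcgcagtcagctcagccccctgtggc
Id3: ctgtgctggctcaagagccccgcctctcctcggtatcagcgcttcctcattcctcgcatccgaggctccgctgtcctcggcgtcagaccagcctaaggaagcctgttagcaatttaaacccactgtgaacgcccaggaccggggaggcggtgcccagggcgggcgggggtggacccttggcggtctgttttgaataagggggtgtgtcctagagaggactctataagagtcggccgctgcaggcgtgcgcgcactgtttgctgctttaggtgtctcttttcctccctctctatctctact
Id2 held 1 E-box and 1 GGCGCC, and Id3 held neither motif in this window. Of 32851 promoters searched in the same way, 72.3% held CANNTG and 11.9% held GGCGCC. Both E-box forms known from Twist1 dimers are cases of CANNTG. Of them, CATATG was in 3.91% of promoters. The other form, CATCTG, was in 17.2%. Among the members searched, CATCTG was found in the Hand2 promoter, which held 2 E-boxes and 1 GGCGCC, and the promoters of Twist1 and Twist2 held none of the motifs searched.

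Genes of BMP signalling were described through a list of 26 ligands, receptors, SMADs, feedback genes and targets. In MUT vs WT, 15 were called lower and 2 higher, with a median log2 change of -1.69 against 0.18 over all genes, of which 14.6% were called lower and 20.5% higher. Of the same genes, 11 were called higher in REG vs MUT and 2 lower, with a median of 1.17 against -0.36 over all genes, of which 11.8% were called higher and 24.8% lower. Among genes that passed a 10 times stricter filter the medians were -0.99 in MUT vs WT and 0.73 in REG vs MUT. Smad6, an inhibitory SMAD that BMP signalling induces, averaged 2.34 ± 2.17 in MUT and 19.3 ± 1.42 in WT and fell by 3.19 ± 0.53 on the log2 scale (limma adjusted p = 0.00296). Smad7, the other inhibitory SMAD, averaged 4.54 ± 0.957 in MUT and 32.4 ± 3.86 in WT and fell by 2.75 ± 0.37 (limma adjusted p = 0.00153). Smad6 rose by 2.39 ± 0.53 and Smad7 by 1.83 ± 0.37 in REG vs MUT (limma adjusted p of 0.00846 and 0.00605).

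Both genes of that list that were higher in MUT were Grem1 and Bmpr1b. Grem1, a secreted BMP antagonist, had values of 2.04, 1.3 and 3.61 in REG, 14.1, 71.4 and 29 in MUT, and 5.92, 3.91 and 3.12 in WT. It was highest in the 3 MUT libraries and fell in REG vs MUT, with a log2 change of -3.63 ± 0.58 (limma adjusted p = 0.00261). Bmpr1b, a type I BMP receptor, averaged 0.328 ± 0.136 in REG and 1.83 ± 0.394 in MUT and fell by 1.66 ± 0.32 (limma adjusted p = 0.00498). Atoh8, a bHLH gene and a BMP target in endothelium, averaged 8.83 ± 4.32 in REG, 1.88 ± 0.877 in MUT and 14.4 ± 3.42 in WT. It fell in MUT vs WT by 2.78 ± 0.46 and rose in REG vs MUT by 2.02 ± 0.46 (limma adjusted p of 0.00294 and 0.0094). In MUT vs WT scaled to total reads, 4 genes of the list were called lower and 2 higher, beside 2.89% and 38.7% of all genes. After background subtraction 4 were lower, beside 3.58% of genes, and 1 higher. With total scaling none was called higher and 3 lower in REG vs MUT, beside 3.24% and 37.7% of all genes.

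A list held 26 genes linked to Twist1 in skull growth or as reported targets. In MUT vs WT, 20 were called lower and none higher, beside 14.6% and 20.5% of all genes (median log2 change -2.15 against 0.18). In REG vs MUT, 13 were called higher and 1 lower, beside 11.8% and 24.8% of all genes (median 1.45 against -0.36). Among genes that passed a 10 times stricter filter the medians were -0.99 in MUT vs WT and 0.73 in REG vs MUT. Of the genes of this list, 4 also stood in the list of suture mesenchyme markers and 2 in that of osteoblasts. Runx2, the master regulator of osteoblast formation that Twist proteins bind, had values of 35.1, 29.6 and 57.7 in REG, 11.6, 12.4 and 9.34 in MUT, and 54.3, 98.3 and 81.5 in WT. Its MUT libraries were close together and under all others, and it fell in MUT vs WT by 2.74 ± 0.38 (limma adjusted p = 0.00165) and rose in REG vs MUT by 1.79 ± 0.38 (limma adjusted p = 0.00711). Fgfr2, a receptor mutated in human craniosynostosis, averaged 45.2 ± 22.3 in REG, 10.4 ± 0.122 in MUT and 92.1 ± 26.8 in WT. It fell in MUT vs WT by 3.05 ± 0.42 and rose in REG vs MUT by 1.96 ± 0.42 (limma adjusted p of 0.0016 and 0.0075).

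Of the same list, Pdgfrb, a receptor of mesenchymal cells, fell in MUT vs WT by 3.50 ± 0.34 and rose in REG vs MUT by 3.08 ± 0.34, with means of 55.7 ± 6.78 in REG, 6.26 ± 0.932 in MUT and 75.8 ± 20.1 in WT (limma adjusted p of 0.00101 in REG vs MUT and 0.00072 in MUT vs WT). Cdh11, a cadherin of mesenchyme, averaged 85.5 ± 7.21 in REG, 10.8 ± 3.88 in MUT and 108 ± 24.5 in WT. Erf, a repressor downstream of ERK and a human synostosis gene, averaged 22.3 ± 3.3 in REG and 4.58 ± 1.02 in MUT and rose in REG vs MUT by 2.21 ± 0.32 (limma adjusted p = 0.00198). Thbs1 averaged 14.3 ± 3.55 in MUT and 177 ± 71.6 in WT. Scaled to total reads, 11 genes were called lower and 2 higher in MUT vs WT, beside 2.89% and 38.7% of all genes. On that scale 9 were called higher and 3 lower in REG vs MUT, beside 3.24% and 37.7%.

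The list of E-protein regulators held 18 genes, among them LIM-domain cofactors, Snail and ZEB repressors of E-boxes, ETO-family corepressors and acetyltransferases. In MUT vs WT 8 were called lower and none higher, and in REG vs MUT 5 higher and 2 lower. Over all genes 14.6% were called lower in MUT vs WT, and 11.8% higher and 24.8% lower in REG vs MUT. The median log2 change of the list was 0.86 in REG vs MUT, against -0.36 over all genes, and -0.94 in MUT vs WT, against 0.18 over all genes. Among genes that passed a 10 times stricter filter the medians were 0.73 and -0.99, near those of the list. Ldb1, which bridges LIM-domain and bHLH complexes, had values of 19.2, 20.1 and 24.8 in REG, 4.91, 7.1 and 5.05 in MUT, and 25.1, 27.2 and 19.9 in WT. It fell in MUT vs WT by 2.02 ± 0.32 and rose in REG vs MUT by 1.85 ± 0.32 (limma adjusted p of 0.00261 and 0.00352). Snai2, an E-box repressor of mesenchyme, averaged 3.48 ± 1.46 in REG, 0.844 ± 0.524 in MUT and 5.52 ± 0.894 in WT. Zeb1, a related repressor, averaged 8.56 ± 4.84 in MUT and 43.2 ± 6.63 in WT. Gfi1b, a transcriptional repressor found in blood cells, averaged 3.84 ± 1.23 in REG and 0.971 ± 0.698 in MUT. Scaled to total reads, 1 gene of the list was called lower and 2 higher in MUT vs WT, beside 2.89% and 38.7% of all genes.

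Of 30 other class II bHLH genes, the tissue-restricted partners of E proteins, 27 passed the filter. In MUT vs WT, 6 were called higher and 1 lower, with a median of 0.73 against 0.18 over all genes, and in REG vs MUT 3 higher and 8 lower, with a median of -0.74 against -0.36. The 6 higher are near the 20.5% of all genes called higher in MUT vs WT, and the 8 lower near the 24.8% called lower in REG vs MUT, so these counts do not set the list apart. The gene that was lower in MUT was Atoh8. Tal2, a bHLH gene of midbrain, averaged 0.792 ± 0.211 in MUT and 0.192 ± 0.0394 in WT. Myog, a muscle regulator, averaged 0.665 ± 0.0806 in MUT and 0.129 ± 0.0501 in WT. Myod1, which starts the muscle programme, averaged 0.171 ± 0.111 in REG and 1.34 ± 0.541 in MUT, and Nhlh2, a bHLH gene of neurons, 1.04 ± 0.512 in REG and 3.52 ± 1.34 in MUT. These levels were low, and Scx, the tendon regulator, averaged 2.88 ± 1.55 in REG, 1.42 ± 1.22 in MUT and 3.4 ± 1.06 in WT without a call in any comparison. Scaled to total reads, 14 of 28 genes were called higher and 1 lower in MUT vs WT, beside 38.7% of all genes called higher, and after quantile scaling 1 was higher and 2 lower. After background subtraction 2 were higher and none lower.

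The genes whose values ran most like those of a member over the 9 libraries were ranked by Pearson's r of log2 values, as a description, among about 9335 genes with a mean of at least 10 pseudocounts. Twist1 was most like Ccdc66 (0.988), Plcb3 (0.987) and Man1a2 (0.987), all of which were also higher in MUT replicate 2 than in the other MUT libraries. Tcf12 was most like Pdgfra (0.995), App (0.994) and Prnp (0.993). Id1 was most like Atxn2 (0.995), Ext1 (0.990) and Afap1 (0.986), and Id3 like Cnn3 (0.992), Col3a1 (0.989) and Lmna (0.989). Col3a1, a collagen of fibrous tissue, had values of 2845, 3226 and 3686 in REG, 9.35, 56.4 and 19.3 in MUT, and 4212, 8468 and 6724 in WT. Twist2, which lay at background in MUT, was most like Pcdhb14 (0.904), Map2 (0.884) and Dnal1 (0.869). The libraries share group, depth and background, which all enter these r.

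Markers of cell types are given beside the members. Over all genes, 14.6% were called lower and 20.5% higher in MUT vs WT, and 11.8% higher and 24.8% lower in REG vs MUT. The summed values of 17 suture mesenchyme markers were 13017 to 33452 in REG, 1342 to 13893 in MUT and 24974 to 44565 in WT, and 13 of them were called lower in MUT vs WT and 10 higher in REG vs MUT. Postn, a matrix protein of periosteum and suture, averaged 498 ± 153 in REG, 7.44 ± 1.26 in MUT and 479 ± 210 in WT. Of 12 osteoblast markers, with sums of 10352 to 23618 in REG, 985 to 11434 in MUT and 17828 to 32181 in WT, 8 were called lower in MUT vs WT and 6 higher in REG vs MUT. Dmp1, an osteocyte matrix protein, averaged 30.4 ± 17.7 in MUT and 349 ± 39.7 in WT. The MUT sums of both lists lay under WT and overlapped with REG. Both lists hold Col1a1, so their sums are not independent. A sum follows its most abundant genes, and single markers can differ from it. Every marker of both lists had reads in all libraries except Dpt, at 0 reads in MUT replicate 2, the library with the fewest estimated reads. Every B-lineage, endothelial, macrophage, neuronal and glial marker also had reads in all libraries. Having reads therefore does not show that the labelled tissue was present in a library. The part of any of these cell types in the members' values was not tested.

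The lists that follow stand beside the same shares of all genes, 14.6% lower and 20.5% higher in MUT vs WT. In REG vs MUT those shares were 11.8% higher and 24.8% lower. Of 12 endothelial markers the sums were 82 to 152 in REG, 42.1 to 67.8 in MUT and 120 to 154 in WT. In MUT vs WT 4 were called lower and in REG vs MUT 4 higher. Of 12 macrophage markers the sums were 455 to 821 in REG, 95.2 to 189 in MUT and 170 to 277 in WT, with 5 called lower in MUT vs WT and 7 higher in REG vs MUT. Of 12 B-lineage markers the sums were 86.6 to 113 in REG, 338 to 1778 in MUT and 36.8 to 85.1 in WT. Pax5 alone made up most of the lowest and of the highest MUT sum, so these sums largely follow that gene. Pax5, the B-cell regulator that acts beside Tcf3 and Ebf1, had 60.2, 65.6 and 12.1 in REG, 271, 1547 and 363 in MUT, and 20, 3.74 and 8.33 in WT. Of the 12 markers, 2 were called higher in MUT vs WT and 2 lower in REG vs MUT. These counts are near the 20.5% and 24.8% of all genes and do not set the list apart. Of 12 neuronal and glial markers the sums were 22.4 to 37.7 in REG, 68.4 to 125 in MUT and 28.7 to 35.8 in WT, with 5 called higher in MUT vs WT and 5 lower in REG vs MUT. Of 12 skeletal muscle markers the sums were 107 to 964 in REG, 88.2 to 106 in MUT and 33.3 to 152 in WT, with 6 called higher in REG vs MUT and none called in MUT vs WT. The called muscle markers of smallest p, Tnni2, Myh1 and Tnnt3, were uneven in REG. All of them were highest in REG replicates 1 and 2, with Myh1 at 117, 105 and 6.16 in REG. Pvalb was at 0 reads in 1 WT library.

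The marker counts moved with the scaling too. With total scaling, 10 B-lineage markers and 8 neuronal and glial markers were called higher in MUT vs WT, beside 38.7% of all genes. After background subtraction 6 and 2 were, beside 3345 of 24095 genes. Over all genes, 2.89% were called lower in MUT vs WT with total scaling and 3.58% after background subtraction. Macrophage markers called lower in MUT vs WT numbered 1 with total scaling and 0 after background subtraction, and endothelial markers 1 in both. Suture mesenchyme markers called lower in MUT vs WT numbered 7 with total scaling and 4 after background subtraction, and osteoblast markers 6 and 4. Called higher in REG vs MUT were 7 and 3 suture mesenchyme markers, 5 and 4 osteoblast markers, 5 and 3 macrophage markers, 2 and 3 muscle markers and no endothelial marker, in the same order of settings. Over all genes 3.24% and 3.49% were called higher there.

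**Figure D5:**
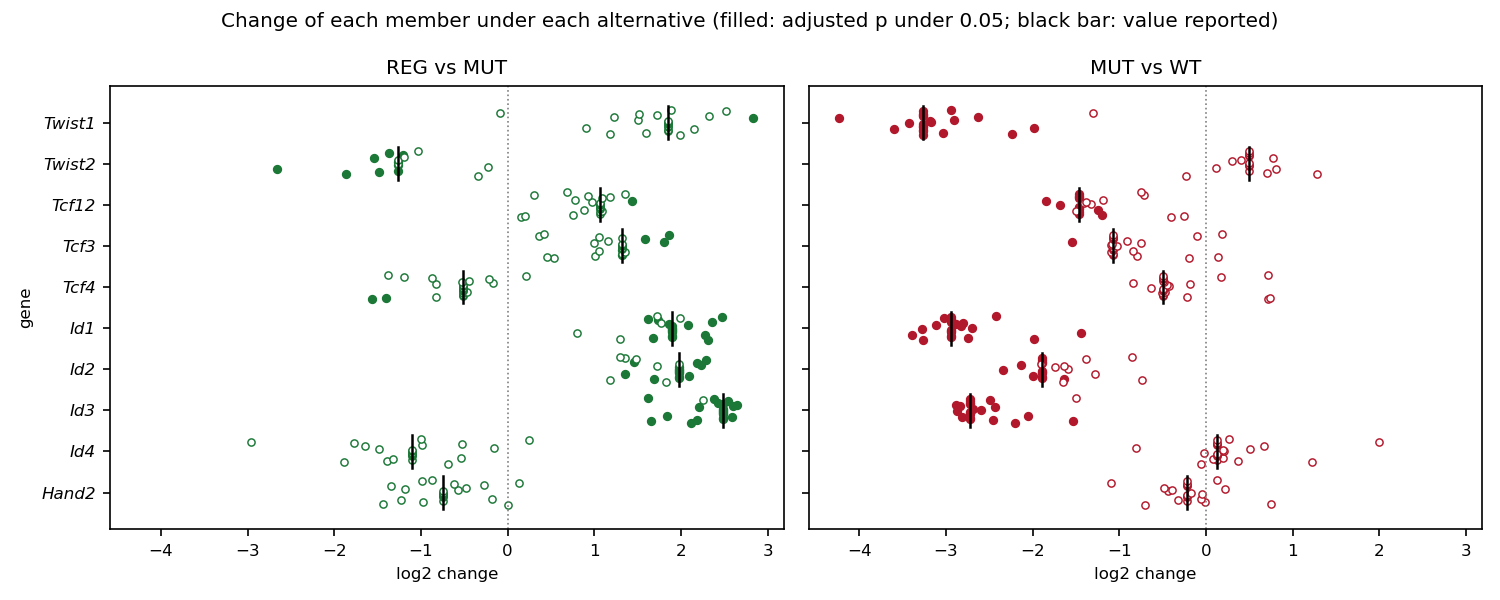
Log2 change of each member in REG vs MUT and MUT vs WT under up to 22 alternative settings, fewer for Twist2, Id4 and Hand2, which did not pass the filter in some (points, filled where the adjusted p was under 0.05), with the value reported as a black bar. Id1 stays called in MUT vs WT under all of them, and the changes of Twist2, Tcf3, Tcf4, Id4 and Hand2 in MUT vs WT lie on both sides of 0.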

How the data were processed

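Total RNA from coronal sutures was sequenced single-end for 75 cycles on a NextSeq500 and had integrity numbers above 9, per the labels. The submitters' processing notes name the mm10 build, STAR 2.6.1d and Partek, with no settings. How reads were counted, on which strand and how they were scaled is not stated in these sources. For each gene the deposited matrix holds a normalized signal. Judged from the values, it is the reads with 1 added, multiplied so that every library has an upper quartile of 2.76. The authors' deposited gene table gives their p-value and FDR, a log2 ratio for each pair of groups, and 4 statistics per gene. The matrix names no genes, so its entries were tied to that table by position, where the 4 statistics recomputed from the matrix matched for all 43644 genes within a relative 1e-06. The labels mention 3 sample pairs, and the series text a time of 1 week after induction, with no explanation of either. The submitters' library names of REG replicates 1 and 2, and that of MUT replicate 2, have another form than the rest. The reason is not stated, and any part of it in the results was not tested.

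All 9 libraries entered 1 fit with limma 3.58.1 in R 4.3.3 on log2(value + 0.367), keeping genes that reached 0.367 in 3 libraries. Fold changes of low genes are thereby understated. Two-sided p-values received the Benjamini-Hochberg adjustment across every gene in the fit, with calls made under 0.05. Background was the median reads per kb of exon over 1597 receptor genes times a gene's exon length (GENCODE M21, matched for 98.5% of symbols). Same-numbered libraries of different groups did not deviate together, and no pairing was used in that fit. Pairings by anything but the title number were not tested. The code was tested on simulated data. The members, lists and tests were chosen with earlier results of these data known. All members were named; list and marker genes were named by smallest p among those called, at most 3 a comparison, with Smad6, Smad7, Runx2, Fgfr2 and Scx added, and likeness was ranked for Twist1, Twist2, Tcf12, Id1 and Id3. Figures were drawn with matplotlib 3.10.9 and tables made with pandas 2.3.3 (Python 3.11.15, numpy 2.4.6).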

Additional observations from a re-analysis of the deposited data

How the results depend on the processing

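The values are not counts, so no count model was run. In MUT vs WT, 5 members were called lower, against 3 after quantile or total scaling, 2 with MUT replicate 2 alone, 2 after background subtraction and 3 to 6 with 1 library left out. In REG vs MUT, 4 were called higher, against 2 after quantile scaling, 1 after total scaling, 2 with a pseudocount 10 times higher, 0 with MUT replicate 2 alone, 1 after background subtraction and 1 to 6 with 1 library left out. The 1 member called lower in REG vs MUT, Twist2, was replaced by Tcf4 after quantile scaling, where Twist2 was at -0.34 (limma adjusted p = 0.6); the count became 2 after total scaling and 0 with a 10 times stricter filter, a pseudocount 10 times higher, only the 2 groups compared, MUT replicate 2 alone, REG replicates 1 and 2 left out, or background subtraction, and 0 to 1 with 1 library left out. With a replicate block, 5 members were called lower in MUT vs WT, while in REG vs MUT 3 were called higher and 0 lower. Correlations between same-numbered libraries were -0.20 to 0.10, so the title numbers showed no pairing. The largest between groups was 0.38, for WT replicate 2 with REG replicate 3. The submitters' library names number REG otherwise than the titles, and no other pairing was tested. In REG vs WT no member was called under any alternative. Twist1 in MUT vs WT was called in 21 of 22 alternatives and lost with MUT replicate 2 alone (-1.31), and it ran from -4.23 to -2.63 with 1 library left out. Its limma adjusted p was 0.00242 to 0.0461 with 1 library left out. After background subtraction it was 0.0498, just under the threshold. The cause of these changes was not tested.

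Changes that turned sign were, in MUT vs WT, Twist2 after quantile scaling (-0.23), Tcf3 after total scaling (0.14) and background subtraction (0.18), Tcf4 after quantile scaling (0.71), total scaling (0.74), background subtraction (0.72) and with MUT replicate 2 alone (0.17), Id4 after quantile scaling (-0.06) and with 1 library left out (-0.81 to 0.67, negative without WT replicate 1 at -0.02 or MUT replicate 2), and Hand2 after total scaling (0.75), background subtraction (0.13) and with 1 library left out (-0.49 to 0.22, positive without MUT replicate 2). In REG vs MUT they were Twist1 (-0.09) and Hand2 (0.13) with MUT replicate 2 alone, and Tcf4 (0.21) and Id4 (0.25) without REG replicates 1 and 2. In REG vs WT they were Tcf3 with 1 library left out (-0.02 to 0.52, negative without REG replicate 3), Id2 with 1 library left out (-0.43 to 0.39, negative without WT replicate 1 at -0.37 or REG replicate 2) or without REG replicates 1 and 2 (-0.53), Id3 after total scaling or background subtraction (0.12 in both), and Id4 without REG replicates 1 and 2 (0.37). None of these changes was called in either setting. Twist2 had no value after background subtraction or in other settings where it did not pass the filter.

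Counts over the related lists under quantile scaling, total scaling and background subtraction, in that order, were as follows. The genes tested numbered 28204, 30353 and 24095. Of all of them, 2501, 876 and 862 were lower in MUT vs WT and 2532, 11734 and 3345 higher. In REG vs MUT, 1865, 982 and 841 of all genes were higher and 2300, 11455 and 3076 lower. BMP genes lower in MUT vs WT numbered 9, 4 and 4 (15 as reported) and higher 1, 2 and 1 (2), and in REG vs MUT 4, 0 and 2 were higher (11) and 1, 3 and 1 lower (2). Twist1-linked genes lower in MUT vs WT numbered 15, 11 and 7 (20) and higher 0, 2 and 0 (0), and in REG vs MUT 8, 9 and 4 were higher (13) and 0, 3 and 0 lower (1). E-protein regulators lower in MUT vs WT numbered 3, 1 and 1 (8) and higher 1, 2 and 1 (0), and in REG vs MUT 3, 1 and 0 were higher (5). Class II bHLH genes higher in MUT vs WT numbered 1, 14 and 2 (6) and lower 2, 1 and 0 (1), and in REG vs MUT 2, 0 and 0 were higher (3) and 1, 12 and 3 lower (8). After background subtraction the mean Tcf12 to Twist1 ratio in MUT was 23.5, and the mean Twist2 to Twist1 ratio was 0.00218 in REG and 0 in MUT; the other ratios moved by less than 1 SD. MUT replicate 2, with 2945636 estimated reads, limits the precision of low members there.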

Other observations

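Hand2os1, an RNA transcribed opposite to Hand2 from chromosome 8, 57281117 to 57324233, was chosen here after its values were seen, while Hand2 itself was called in no comparison. Its values were 4.06, 1.65 and 0.786 in REG, 20.4, 57.7 and 26.3 in MUT, and 2, 1.17 and 1.31 in WT. All 3 MUT libraries lay above all others. It rose in MUT vs WT by 4.12 ± 0.55 on the log2 scale (limma adjusted p = 0.00148) and fell in REG vs MUT, with a log2 change of -3.87 ± 0.55 (limma adjusted p = 0.00185). The background expected over its exons was 21.1%, 4.25% and 13.9% of its MUT reads, and after subtraction it stood at 10.3, 3.95 and 1.18 RPM in REG, 117, 202 and 173 RPM in MUT, and 3.38, 1.54 and 1.77 RPM in WT. On that scale the log2 changes were 5.68 in MUT vs WT and -5.02 in REG vs MUT (limma adjusted p of 0.00037 and 0.00076).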
